A study of Mus musculus with 2 samples.

Results

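MicroRNA genes with precursors listed as arising without the Microprocessor, namely Mir320, Mir484, Mir877, Mir1224 and Mir1981, were followed in microRNA-seq of the newborn mouse hindbrain. They were chosen by gene symbol, matched through the Ensembl identifiers of the tables to GENCODE M21 (mm10), and they are 5 of 1973 microRNA genes with a row. All 5 were found, and all 5 had counts in both libraries. The tissue was the hindbrain of mice of strain B6NCrl at postnatal day 0, untreated as far as the labels say, with 1 whole hindbrain from each of 2 pups (pup 3 and pup 1), whose sex was not collected. The labels name different pups but give both the same donor identifier, and RNA of under 30 nt was taken, by the label for size. Both libraries belong to 1 group, so no condition was compared.

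In the usual pathway the Microprocessor, made of the nuclease Drosha and its partner DGCR8, cuts a hairpin out of a long primary transcript, and Dicer then cuts the hairpin to the mature microRNA. Mirtrons skip the first cut: a short intron is spliced out, debranched, and folds into the hairpin that Dicer cuts. A further class skips it because transcription begins at the 5′ end of the hairpin itself, which keeps its cap. Mir320 and Mir484 are known in mouse as members of this capped class, and Mir877 and Mir1224 as mirtrons. Mir1981 is grouped with the mirtrons here because its precursor matches a whole intron. None of these processing steps was measured here, and the counts are of small RNA reads per precursor gene.

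The precursors of Mir877, Mir1224 and Mir1981 coincided with whole introns. Both ends of each precursor matched the ends of an annotated intron with a difference of 0 nt. This position was found for 22 of the 1894 rows with a GENCODE match, or 1.16%. The genes were picked by name as made without the Microprocessor, so nothing is read from that share. Mir1224 (ENSMUSG00000080669.1) fills an intron of 85 nt in Vwa5b2, on the plus strand of chromosome 16 from 20604452 to 20604536. Mir877 (ENSMUSG00000077931.1) fills an intron of 85 nt in Abcf1, an ATP-binding cassette gene of the translation machinery, on the minus strand of chromosome 17 from 35960730 to 35960814. Mir1981 (ENSMUSG00000088559.1) fills an intron of 82 nt in Marc2, a gene of a mitochondrial reductase, on the minus strand of chromosome 1 from 184822407 to 184822488. The hairpins are shown whole because their ends are the splice sites, and the capitals mark the first and the last pair of bases (RefSeq, GRCm38.p6).
Mir1224: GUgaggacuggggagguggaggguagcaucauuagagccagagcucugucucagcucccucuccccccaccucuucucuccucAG
Mir877: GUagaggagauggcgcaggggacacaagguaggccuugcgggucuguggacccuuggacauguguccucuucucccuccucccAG
Mir1981: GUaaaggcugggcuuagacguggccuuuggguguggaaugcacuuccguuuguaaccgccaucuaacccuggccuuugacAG

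All 3 hairpins begin with GU and end with AG, the bases that mark the start and the end of most introns. Of 869 RefSeq hairpins of genes in the tables, 30 have both, or 3.45%. In the 3 mirtrons these ends go with the match to whole introns, so nothing is read from that share either. RefSeq held a sequence for 4 of the 5 genes, and Mir320 is given by name. The mature 5′ arms of the 3 mirtrons start exactly at the first base of the intron, so that the seed, the stretch from base 2 to base 8 that pairs with targets, begins at the U of the splice site. The 3′ arms stop 0 nt (Mir1224), 1 nt (Mir877) and 2 nt (Mir1981) before the last base of the intron. The 5′ arms are shown with the mature sequence of Mir484, with the seed in capitals.
miR-1224-5p: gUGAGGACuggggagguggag
miR-877-5p: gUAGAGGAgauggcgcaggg
miR-1981-5p: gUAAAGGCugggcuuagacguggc
miR-484: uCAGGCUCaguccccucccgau

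No seed was shared among these sequences. None of the 7 mature sequences of the 4 genes shared its seed with a mature sequence of another gene among the 1679 names in the RefSeq table used here. Each of the 5 precursors, Mir320 included, shared no stretch of 20 nt with another annotated microRNA locus, as did 965 of 1894 matched rows. Reads that map to several loci are left out of these counts, and they made up 42.0% of reads in pup 3 and 40.2% in pup 1.

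Mir320 and Mir484 lie outside introns and exons of their own strand. Mir320 (ENSMUSG00000065528.1) lies on the plus strand of chromosome 14 from 70443510 to 70443591. Its precursor begins 63 nt from the annotated start of Polr3d, a subunit gene of RNA polymerase III that is transcribed away from it on the minus strand. The median distance to a protein-coding gene start over all matched rows was 31270.5 nt. Mir484 (ENSMUSG00000070074.1) lies on the plus strand of chromosome 16 from 14159626 to 14159692. Its nearest protein-coding gene start is that of Nde1, a gene of the dynein pathway of neuronal migration, at 3583 nt. A start of a Marf1 transcript on the minus strand is nearer, at 359 nt, and 19 nt of the precursor overlap a 5′ UTR of Marf1 on the other strand. Both precursors thus have, within 400 nt, a transcript start of a protein-coding gene that points away from them. Mir484 is also overlapped by a 5′ UTR of Marf1, so its position is not simply head to head. The measure of such starts was chosen after the positions were seen. Such a start was found for 24 of 1894 rows, or 1.27%, and of these 24 Mir320 and Mir484 were the 2 that reached 10 CPM in both pups. Of all 1973 rows, 15.5% reached that level. Both genes were picked by name with earlier results of these data known, so nothing is read from that count.

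The libraries held 3012320 counts (pup 3) and 2459757 counts (pup 1) on the strand of a microRNA gene, and CPM are counts scaled to 1000000 of these. At this depth 3 counts, the limit that a count of 0 allows, equal 0.996 CPM in pup 3 and 1.22 CPM in pup 1. The neuronal markers Mir137 and Mir149 reached 12408 ± 1160 and 16538 ± 1327 CPM and the Hox-encoded Mir10a 29630 ± 8607 CPM, while the liver marker Mir122 had 43.7 ± 2.55 CPM (SD, n = 2). The pups' counts differed by more than sampling noise, with a chi-square of 49286 for 394 degrees of freedom, so the tables do not hold 1 library deposited again.

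The 5 genes spanned a wide range of levels, with the capped pair above the 3 mirtrons. Mir484 had 6655 counts in pup 3 and 6216 in pup 1, or 2209 and 2527 CPM. Mir320 had 2639 counts in pup 3 and 2341 in pup 1, or 876 and 952 CPM. Every value of this pair lay above every value of the mirtrons. Mir1224 had 465 counts in pup 3 and 461 in pup 1, or 154 and 187 CPM. Mir877 had 332 counts in pup 3 and 312 in pup 1, or 110 and 127 CPM. Mir1981 had 159 counts in pup 3 and 199 in pup 1, or 52.8 and 80.9 CPM, the lowest and the most variable of the 5. No read fell on the opposite strand of any of them.

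As mean over the pups, Mir484 held 2368 ± 225 CPM, Mir320 914 ± 53.5, Mir1224 171 ± 23.4, Mir877 119 ± 11.8 and Mir1981 66.8 ± 19.9 CPM (SD, n = 2). The order was the same in both pups, and no 2 neighbours in it overlapped. The widest step was between Mir320 and Mir1224, at 5.35-fold of the means (5.68-fold in pup 3 and 5.08-fold in pup 1). The narrowest was between Mir1224 and Mir877, at 1.44-fold, with 154 CPM as the lower value of Mir1224 and 127 CPM as the higher value of Mir877. These levels are not divided by length. The annotated mature products of 4 of the genes run from 20 to 24 nt.

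**Figure D1:**
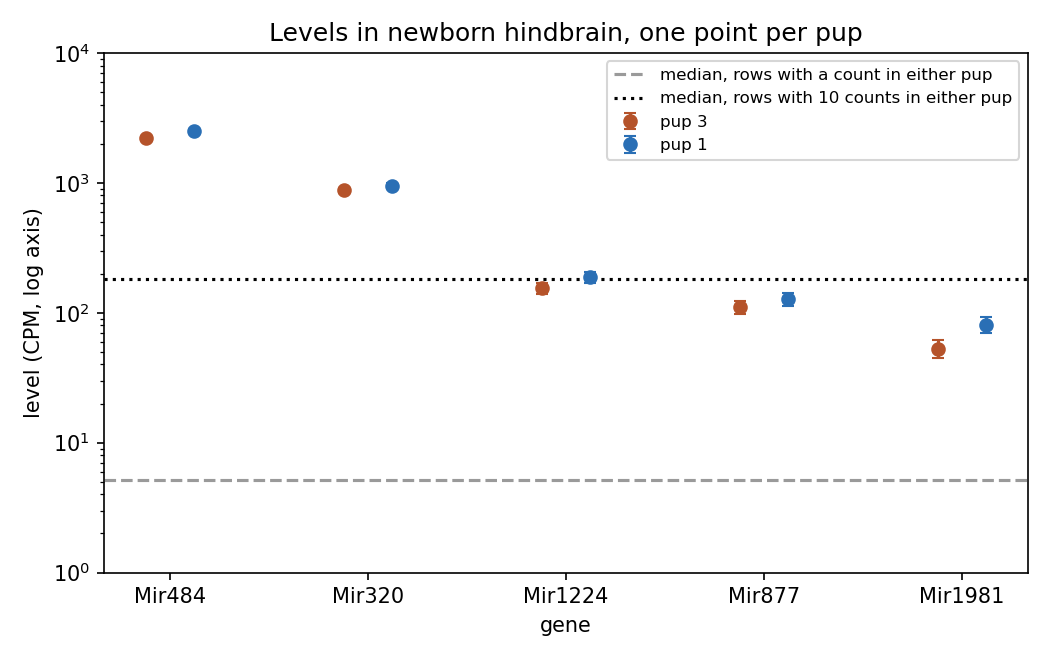
Level of each gene in CPM on a log axis, pup 3 in orange and pup 1 in blue, with exact 95% binomial intervals that cover counting error only. Dashed and dotted lines mark the medians of 699 rows with a count (5.13 CPM) and of 395 rows with 10 counts in either pup (181 CPM); all points lie above the dashed line, and Mir877 and Mir1981 lie below the dotted one.

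Together the 5 genes took a small part of the reads. They held 0.340% of same-strand counts in pup 3 and 0.387% in pup 1, or 0.364% ± 0.0333 (SD, n = 2). Mir484 and Mir320 made up 0.328% ± 0.0278 and the 3 mirtrons 0.0356% ± 0.0055.

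All 5 genes stood above the median of rows with counts, and how far depended on which rows entered that median. Over the 699 rows with at least 1 count in either pup the median was 4.98 CPM in pup 3 and 4.88 CPM in pup 1. Mir484 stood 444-fold above it in pup 3 and 518-fold in pup 1, Mir320 176-fold in pup 3 and 195-fold in pup 1, and Mir1224 31.0-fold in pup 3 and 38.4-fold in pup 1. Mir877 stood 22.1-fold above it in pup 3 and 26.0-fold in pup 1, and Mir1981 10.6-fold in pup 3 and 16.6-fold in pup 1. The median of the 5 ratios was 34.7 ± 5.24 (SD, n = 2).

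Of those 699 rows, 395 had at least 10 counts in either pup. Over these 395 rows the median was 182 CPM in pup 3 and 168 CPM in pup 1. Against it Mir484 and Mir320 were higher in both pups, while Mir877 and Mir1981 were lower in both. Mir1224 was below it in pup 3 and above it in pup 1. The median of the 5 ratios was then 0.981, so that the capped pair stood in the upper part of the well-counted genes and the mirtrons near or below their middle. By mean CPM among 699 rows, Mir484 ranked 77, Mir320 ranked 109, Mir1224 ranked 200, Mir877 ranked 219 and Mir1981 ranked 246. All 5 reached 10 CPM in both pups, which 306 of all 1973 rows did, or 15.5%. The genes were picked by name with earlier results of these data known, so nothing is read from that count.

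**Figure D2:**
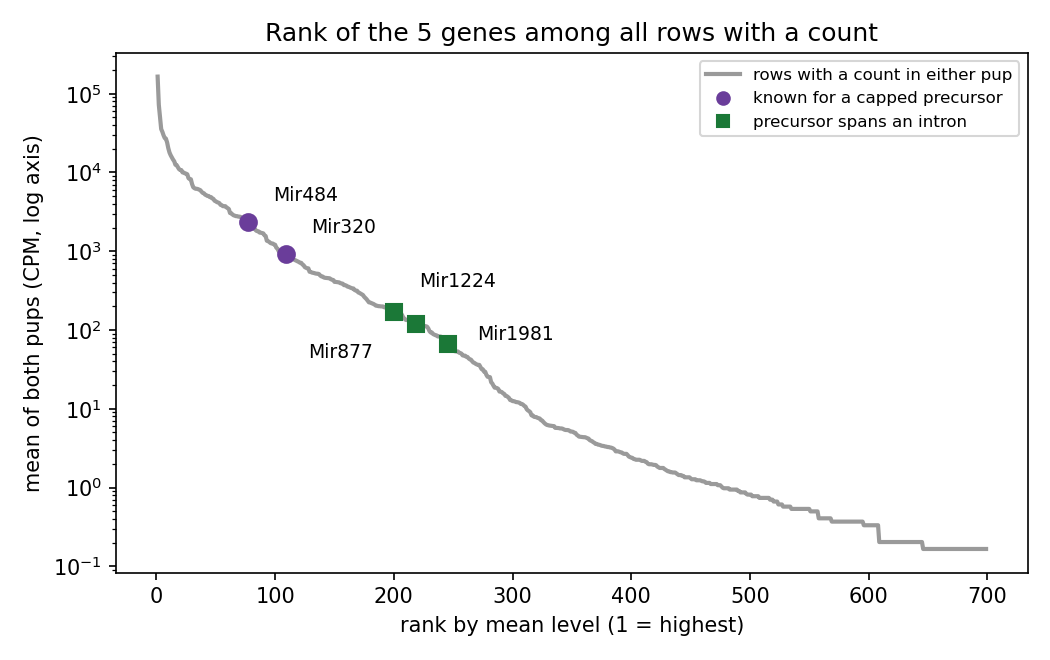
Mean CPM of both pups (log axis) against rank for the 699 rows with a count in either pup. Circles mark the genes known for capped precursors, Mir484 and Mir320, at ranks 77 and 109, and squares the 3 genes whose precursor spans an intron, at ranks 200 to 246.

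The genes nearest in level were named by the distance of log2(CPM + 1) over the 2 pups, with no bearing on function. Nearest to Mir484 were Mir125b-2 (2526 ± 23.9 CPM, distance 0.203) and Mirlet7f-2 (2375 ± 126 CPM, distance 0.214). Nearest to Mir320 were Mir92-1 (973 ± 19.4 CPM, distance 0.142) and Mir448 (942 ± 37.1 CPM, distance 0.154). These levels are those of single copies: Mir125b-2, Mirlet7f-2 and Mir92-1 share 20 nt with other loci and can be undercounted. The same holds for Mir181a-2, Mir669c and Mir3074-1, named next. Nearest to Mir1224 were Mir181a-2 and Mir669c at 168 and 164 CPM, and nearest to Mir877 were Mir3074-1 and Mir212 at 114 and 117 CPM, distances 0.0964 to 0.162. Nearest to Mir1981 were Mir20b, of the Mir106a-363 cluster, at 71.7 ± 15.9 CPM (distance 0.195), and Mir3102, another gene whose precursor fills an intron, at 58.6 ± 16.6 CPM (distance 0.262).

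Each of the 5 genes had a lower CPM in pup 3 than in pup 1. Pup 3 was set against pup 1 by an exact binomial test of each gene's counts given totals scaled by TMM, two-sided, with Benjamini-Hochberg adjustment at 0.05 over the 395 genes with 10 counts or more in a pup. The test compares these libraries beyond counting error, with no replicate on either side. In whole tissue, fewer cells of a type and less RNA per cell cannot be told apart. With 1 library per pup, a difference between pups and one of library preparation cannot be told apart either. The test found 4 of the 5 genes lower in pup 3, where 84 of all 395 genes were lower, or 21.3%, and 101 were higher. The median log2 fold of the 5 genes, pup 3 over pup 1, was -0.26, against 0.02 over all genes tested, of which 47.3% lay below 0.

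Markers of tissue and cell type also differed between the pups, and their part in the lower levels of the 5 genes was not tested. Of 10 markers, 4 were lower in pup 3, 5 were higher and 1, the liver marker Mir122, did not pass the exact binomial test. The lower ones were the Hox-encoded Mir10a (23544 CPM in pup 3 and 35717 in pup 1, log2 fold -0.65) and Mir10b (10196 CPM in pup 3 and 20858 in pup 1, log2 fold -1.09), the neuronal Mir149 (log2 fold -0.22) and the red blood cell marker Mir451a (37.5 CPM in pup 3 and 134 in pup 1, log2 fold -1.88). The higher ones were the neuronal Mir153, Mir128-1 and Mir137 (log2 folds 0.74, 0.27 and 0.14), the red blood cell marker Mir144 (1.91) and the muscle marker Mir206 (0.29). Mir144 had 67.1 CPM in pup 3 and 17.1 in pup 1. Summed CPM of the neuronal markers were 38940 in pup 3 and 36371 in pup 1. Those of the Hox-encoded pair were 33740 in pup 3 and 56575 in pup 1. The red blood cell pair summed to 105 in pup 3 and 151 in pup 1, which hides opposite shifts of Mir451a and Mir144.

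Mir484 had a log2 fold of -0.25 (counting interval -0.30 to -0.20, adjusted p = 2.32e-21 by the exact binomial test). Mir320 had the smallest, at -0.17 (interval -0.25 to -0.09, adjusted p = 8.41e-05, same exact test). Their depth makes such small differences detectable. Of the mirtrons, Mir1224 had -0.33 (interval -0.52 to -0.14, adjusted p = 0.00136, same exact test) and Mir1981 -0.67 (interval -0.98 to -0.36, adjusted p = 3.85e-05, same exact test). Mir877, at -0.26, missed the threshold (interval -0.48 to -0.03, adjusted p = 0.0544, same exact test). The common biological coefficient of variation over 361 genes was 16.5%, which corresponds, for a log2 fold of 1 pup over another, to an SD of 0.34. The folds of Mir320, Mir484, Mir877 and Mir1224 were -0.51, -0.73, -0.76 and -0.99 such SDs, and that of Mir1981 was -1.98. Each of the 5 was thus within 2 SDs of the spread between pups. Larger differences in size were found for 53 of 395 genes in the case of Mir1981 and for 240 in that of Mir320.

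**Figure D3:**
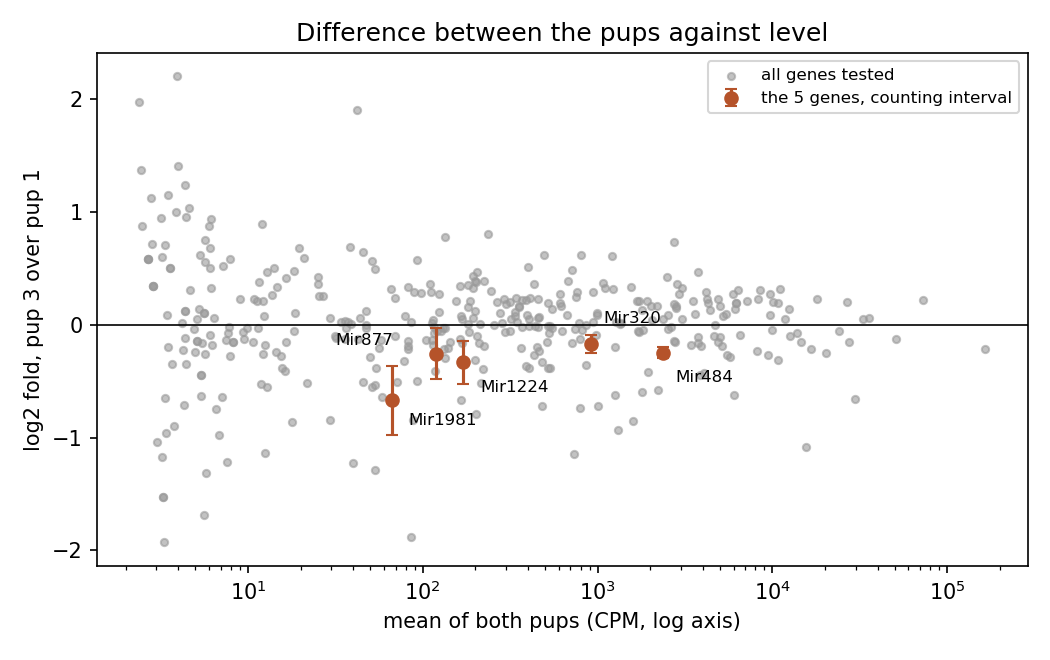
Log2 fold of pup 3 over pup 1 against mean CPM (log axis) for 395 genes tested, in grey, with the 5 genes in orange and their 95% counting intervals. All 5 points lie below 0, from -0.17 (Mir320) to -0.67 (Mir1981).

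Other intron-spanning precursors, with both ends within 10 nt of those of 1 intron, had counts at mostly low levels. Besides the 3 mirtrons, 26 rows had both ends of the precursor within 10 nt of the ends of 1 intron. Of these, 19 had a count in either pup, or 73.1%, against 35.4% of all rows, and 4 reached 10 CPM in both, or 15.4%, against 15.5% of all rows. Of 202 rows with only 1 end of the precursor within 10 nt of an intron end, 70.8% had a count and 1.98% reached 10 CPM in both pups. A high share of rows with a count was thus not particular to intron-spanning precursors. These shares are a description, and their differences were not tested. Together the 26 summed to 148 CPM in pup 3 and 226 CPM in pup 1, against 317 CPM in pup 3 and 395 CPM in pup 1 for Mir877, Mir1224 and Mir1981 together. The 4 above 10 CPM were Mir3102, in an intron of Arhgef17, with 46.8 CPM in pup 3 and 70.3 in pup 1, and Mir702, in Plod3, with 24.6 CPM in pup 3 and 55.7 in pup 1. Mir3547, in Baiap3, had 31.2 CPM in pup 3 and 32.5 in pup 1, and Mir6944, in Dbn1, the gene of the actin-binding protein drebrin, had 21.6 CPM in pup 3 and 37.4 in pup 1. The mean of each of these 4 lay below that of Mir1981. On its own strand Mir3102 also overlapped an annotated exon of Arhgef17. Mir702 began 9 nt before its intron and overlapped an exon of Plod3.

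Of the 9 of these 26 rows with enough counts to test, each had a log2 fold below 0, as did 47.3% of all genes tested. For Mir1982, 1 of the 9, the sign was set by the filter, which it passed only through pup 1. By the same exact binomial test Mir702 (-1.23, adjusted p = 5.55e-09), Mir6944 (-0.84, adjusted p = 0.000794) and Mir3102 (-0.64, adjusted p = 0.000315) were lower in pup 3. Of all 395 genes tested, 84 were lower, or 21.3%. Mir1982 passed as well (-1.93, adjusted p = 0.027), with 4 counts in pup 3 and 13 in pup 1. It entered the test through its count in pup 1 alone, so nothing is read from its fold. The other 5, named Mir3547, Mir6958, Mir3062, Mir7070 and Mir7080, did not pass (-0.11 to -0.35), and each of their counting intervals included 0. Mir877, Mir1224 and Mir1981 lay below 0 as well. GC content moved with this set, and its part in the result was not tested. The 10 tested intron-spanning precursors with a RefSeq hairpin, Mir1982 included, had a median GC of 60.6% and a median log2 fold of -0.34. All 343 tested genes with a hairpin had 50.6% and 0.02. The 127 tested genes with a GC of at least 53.7%, the lowest among the members' hairpins, had a median log2 fold of -0.06, and 54.3% of them lay below 0. In the 216 tested genes of lower GC the median was 0.05, and 43.1% lay below 0. With intron-spanning precursors and the 5 genes left out, 116 genes of the higher GC remained, with a median of -0.01 and 58 below 0.

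**Figure D4:**
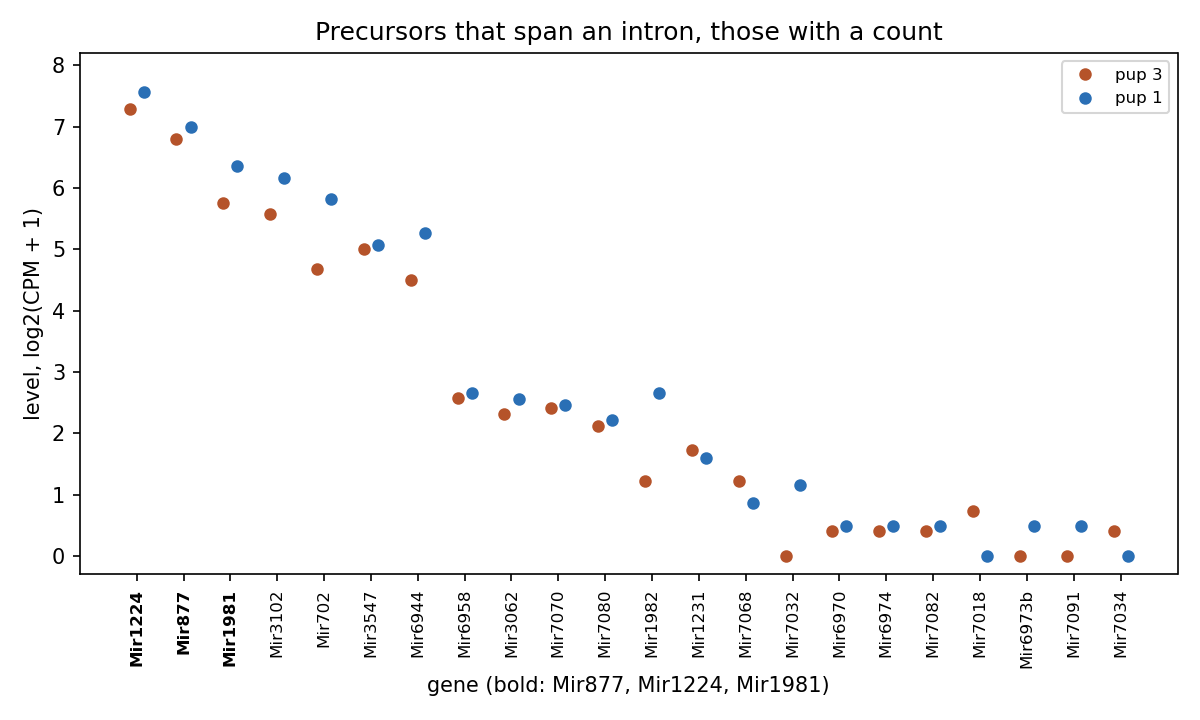
Level as log2(CPM + 1) of the 22 intron-spanning precursors with a count, pup 3 in orange and pup 1 in blue, ordered by mean CPM. Mir1224, Mir877 and Mir1981 lead, and 15 of the other 19 lie below 10 CPM in at least 1 pup.

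A list of 6 genes described in the literature as mirtrons or as products of other small RNAs had 4 with a row, Mir702, Mir3102, Mir1982 and Mir1983. Mir1839 and Mir664 were not analysed here. Mir1983, which derives from a transfer RNA, had 13264 counts in pup 3 and 7537 in pup 1, or 4403 and 3064 CPM, more than Mir484 in both pups. Its log2 fold was 0.47 (interval 0.43 to 0.51, adjusted p = 1.95e-114 by the exact binomial test), opposite in sign to those of the 5 genes and of the intron-spanning set.

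Among the hairpins of the 4 genes with a RefSeq sequence, Mir484 stood apart from the 3 mirtrons in length and pairing. GC content was 61.2% in Mir877, 60.0% in Mir1224, 58.2% in Mir484 and 53.7% in Mir1981, against a median of 52.3% over 869 hairpins. The folding energy predicted with RNAfold was -42.8 kcal/mol for Mir1224, -36.5 for Mir877, -30.3 for Mir1981 and -24.6 for Mir484, against a median of -33.2. Mir484 was the shortest, at 67 nt, and 53.7% of its bases were predicted to pair, while the 3 mirtrons had 82 to 85 nt and 65.9% to 68.3% of bases paired, and the median over all hairpins was 69.4%. Of all 869 hairpins, 1.38% had a share that low or lower. Over the 4 genes the order of folding energy was not the order of level, since Mir484 had the weakest predicted fold and the highest CPM. Among the 3 mirtrons both orders were the same. Per nt, the energy of the shorter Mir484 was -0.367 kcal/mol, close to -0.370 for Mir1981. A link between folding and level was not tested.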

How the data were processed

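By the deposited file listings, the authors made raw read counts per microRNA gene from alignments to mm10 with GENCODE annotation M4. The aligner, the counter and the trimming were not given in the sources used here. There are 3 count columns per table, and the first equals the sum of the others for every gene. The same-strand column was identified from where abundant genes have their counts, and was used throughout. The 4 rows without a gene were left out of totals. Unmapped reads were 12.4% (pup 3) and 13.7% (pup 1).

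Symbols and coordinates came from GENCODE M21 (mm10), which matched 1894 of 1973 rows. TMM factors and the coefficient of variation came from edgeR 4.0.16 (intercept-only design, genes with at least 10 counts in both pups). Binomial tests came from scipy 1.17.1, folds with a prior of 0.5 counts, size factors from DESeq2 1.42.0, and folding from RNAfold 2.7.2. The tests were checked on data with known answers. Intervals cover counting error only, since reads carry no molecular identifiers. The named genes were the 5 members, the 2 nearest in level to each, the 5 highest of the other Microprocessor-independent genes and those listed by name. The members and lists were chosen with earlier results of these data known.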

Additional observations from a re-analysis of the deposited data

How the results depend on the processing

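The comparison with the median depended most on the processing. The median ratio of the 5 genes, 34.7 over rows with a count in either pup, was 7.53 over rows with a count in both pups, 40.9 over rows that share no 20 nt with another locus and 0.981 over rows with at least 10 counts in either pup. It was 19.2 to 19.4 with 1 pup left out, where rows without a count in the other pup drop from the median. All 5 genes were above the median except over rows with at least 10 counts, where 2 were above it in both pups. With all reads in the total the summed level was 1534 CPM in place of 3638, since more reads are divided by. The coefficient of variation was 16.5%, and 16.8%, 15.7% and 16.6% with 10 counts in either pup, 100 counts in both and plain totals. A window of 20 nt gave 48 intron-spanning rows in place of 29. One of the 19 rows added was Mirlet7i at 26868 CPM, and no other of them exceeded 3.27 CPM. Under 5 alternatives of scaling, filter and prior, 4 of the 5 genes passed the test each time. The adjusted p of Mir877 ran from 0.0505 to 0.137 (exact binomial test), and the folds of all 5 stayed below 0, from -0.67 to -0.12. The distance of Mir484 to the nearest start is 3583 nt by gene starts and 359 nt by transcript starts, an alternative chosen after seeing the data. No paired analysis was possible because there is 1 group.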
